A study of Mus musculus with 2 samples.

Results

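The interferon response and RNA sensing genes described here are 45 mouse genes chosen by function: interferon receptors, the transcription factors below them, sensors of viral RNA and the effector genes that interferon switches on. A member was found by its symbol on the array or by the current symbol of its RefSeq accession. All 45 had at least 1 probe, 68 probes on 95 spots in all, out of 22001 genes with a symbol and a probe. Mavs was listed on the array under the clone name D430028G21Rik. The genes were read as a check for a response to the transfected siRNA.

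RNA of induced G1E-ER-GATA-1 cells transfected with LMO2 siRNA was hybridised together with RNA from the same line given control siRNA. G1E-ER-GATA-1 is a mouse erythroid line, labelled GATA-1-null, that carries GATA-1 joined to a hormone-binding domain, and both arms were kept in b-estradiol for 24 h after transfection so that this GATA-1 became active. Each of 2 Agilent arrays (replicates 1 and 2) held the LMO2 siRNA arm in Cy3 and the control siRNA arm in Cy5, so dye and siRNA cannot be told apart. Both arms had been transfected, and no untransfected sample was analysed here. A response that both arms share therefore leaves no trace in the ratio and could be seen only as signal in both channels. The labels do not say that the replicates came from separate cultures, so p-values measure only the spread between these arrays, which may be technical. Fewer responding cells and less RNA per cell cannot be told apart in such bulk RNA.

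Interferons are secreted proteins that cells release after sensing viral nucleic acid. Receptors of the RIG-I family and some Toll-like receptors sense RNA. They signal through adaptors such as MAVS and MYD88 and lead to transcription of interferon genes by factors of the IRF family. Type I interferon acts through IFNAR1 and IFNAR2 and a complex with STAT2 and IRF9 that binds the interferon-stimulated response element (ISRE). Interferon gamma acts through IFNGR1 and IFNGR2 and leads to binding at the gamma-activated site (GAS). Long double-stranded RNA is a strong trigger of this system, and some short siRNAs can also set it off, which is why interferon-stimulated genes are looked at in knockdown experiments.

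The letters searched in promoters, on both strands, were GAAA, any 2 bases and GAAA again for the ISRE (on the other strand TTTC, any 2 bases and TTTC) and TTCNNNGAA, with N any base, for the GAS, from 250 bases before to 50 bases after the start of each gene in RefSeq's table for GRCm38.p6. Adjacent ISRE matches may overlap each other. Among all 32851 promoters in that table, 3.44% held the ISRE letters and 8.3% the GAS letters, which is 3.99% and 9.55% of the 27025 genes. Of the 39 members with a promoter in the table, 17 held the ISRE letters and 14 the GAS letters. The stretches below show the matches in capitals, for classical interferon-stimulated genes that gave little or no signal (Isg15, Ifit1 and Ifit3) and for members that were higher with LMO2 siRNA (Stat2 and Ifitm2 for the ISRE, Irf1 for the GAS). A match describes the letters only.
Isg15, chr4:156200850-156200921, minus strand: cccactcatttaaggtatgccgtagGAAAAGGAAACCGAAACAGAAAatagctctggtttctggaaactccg
Ifit1, chr19:34640760-34640838, plus strand: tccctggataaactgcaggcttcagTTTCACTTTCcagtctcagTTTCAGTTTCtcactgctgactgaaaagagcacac
Ifit3, chr19:34583348-34583441, plus strand: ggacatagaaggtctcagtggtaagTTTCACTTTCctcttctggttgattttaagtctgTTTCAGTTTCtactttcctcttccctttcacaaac
Stat2, chr10:128270251-128270310, plus strand: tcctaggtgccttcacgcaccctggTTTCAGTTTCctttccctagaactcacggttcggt
Ifitm2, chr7:140955973-140956032, minus strand: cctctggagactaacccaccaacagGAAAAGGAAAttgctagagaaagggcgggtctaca
Irf1, chr11:53769899-53769957, plus strand: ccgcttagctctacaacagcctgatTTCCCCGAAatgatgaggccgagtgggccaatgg

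Several probes of the same gene read differently, so the starts of the probes that matter are given too, as the first 30 of 60 bases in the array file. The probes were not aligned to a genome here, so their place in exon or untranslated region is not stated.
B2m, brightest probe: ttgaacctgcttaattacaaatccagtttc
B2m, probe printed in 10 spots: ttcaaaaattggaaatatcctagatagctg
B2m, dimmest probe: actcgtgaggataactagtaactaccaaag
Ifngr2, probe used: caggaaaaagaagtgcacgtgtttcttctt
Ifngr2, further probe: tccgccaaacatcccggaacaaatcgaaga
Irf1, probe used: ctcttgactatctattagaaacgccaccta
Irf1, further probe: gccgagacactaagagcaaaaccaagagga
Mavs, only probe: ctcctgccctggctggctgagctaaggtga

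The knockdown ran as labelled. Lmo2 read 1735 and 1573 normalised intensity units with LMO2 siRNA (replicates 1 and 2), against 6114 and 6361 with control siRNA, a log2 ratio of -1.92 ± 0.14 (SD, n = 2; limma adjusted p = 2.3e-21). Normalised intensity is background-corrected brightness with 50 units added, after loess within the array. All 7 erythroid markers were measured. The labels also call the cells ES cells, but of 5 pluripotency markers only Pou5f1 was measured, near background, and Nanog, Sox2 and Dppa3 were not well above background. Of the 7 macrophage and granulocyte markers 5 were measured, with summed intensities of 614 and 659 with LMO2 siRNA and 584 and 619 with control siRNA. Adgre1 and Elane were not well above background. On the log2 scale Cd68 (0.55) and Ltf (0.16) were called higher, while Csf1r (-0.12), Itgam (-0.09) and Mpo (-0.03) were not called. The part of such cells in the results below was not tested. Of the dendritic cell markers 5 of 6 were measured, of the lymphocyte markers 3 of 5 and of the fibroblast markers 1 of 4, and among these Cd3e alone was called under both fits, lower at -0.34.

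Members were measured about as often as other genes, and several antiviral genes were not well above background in either arm. A gene was counted as measured where a probe had at least 1 channel well above background on both arrays. By this rule 31 of 45 members (68.9%) were measured, against 14312 of all 22001 genes (65.1%). The scanner put 10 members not well above background in either channel on either array by any of their 18 probes. They were Ifit1, Ifit2, Ifit3, Rsad2, Oas2, Oasl2, Cxcl10, Ddx58, Tlr3 and Tlr7. These are antiviral effectors (the Ifit genes and Rsad2, which encodes viperin), oligoadenylate synthetase family genes, a chemokine, the RNA helicase RIG-I and endosomal RNA receptors. A further 4, Isg15, Mx1, Oasl1 and Irf8, were above background in some channel, but by no single probe on both arrays. Isg15, Mx1 and Oasl1 were so on replicate 1 only. Irf8 was so in the control siRNA channel, by 1 probe on replicate 1 and by its other probe on replicate 2.

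Ifit1 had background-subtracted signals of 6.61 and 6.41 units with LMO2 siRNA, against 11.2 and 7.47 with control siRNA. Isg15, the ubiquitin-like modifier, had 10.2 and 6.35 units with LMO2 siRNA, against 20.2 and 9.01 with control siRNA. Cxcl10, a chemokine induced by interferon gamma, had 1.31 and 1.76 units with LMO2 siRNA, against 7.96 and 7.08 with control siRNA. These raw signals were not dye-normalised and the Cy5 channel was brighter, so their order between arms says nothing. Over the 18 probes the LMO2 siRNA channel ran from 1.10 to 13.0 units on replicate 1 and from -0.53 to 10.96 on replicate 2. The control siRNA channel ran from -2.02 to 17.7 and from -1.82 to 15.04. For comparison, 95% of 153 negative-control spots lay below 4.71 and 4.50 units in the LMO2 siRNA channel and below 6.71 and 4.93 in the control siRNA channel. The medians of the 18 probes were 7.20 and 2.85 units in the LMO2 siRNA channel and 10.8 and 5.87 in the control siRNA channel, so in all but the LMO2 siRNA channel of replicate 2 the median probe lay above that level without passing the scanner's own test.

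**Figure D1:**
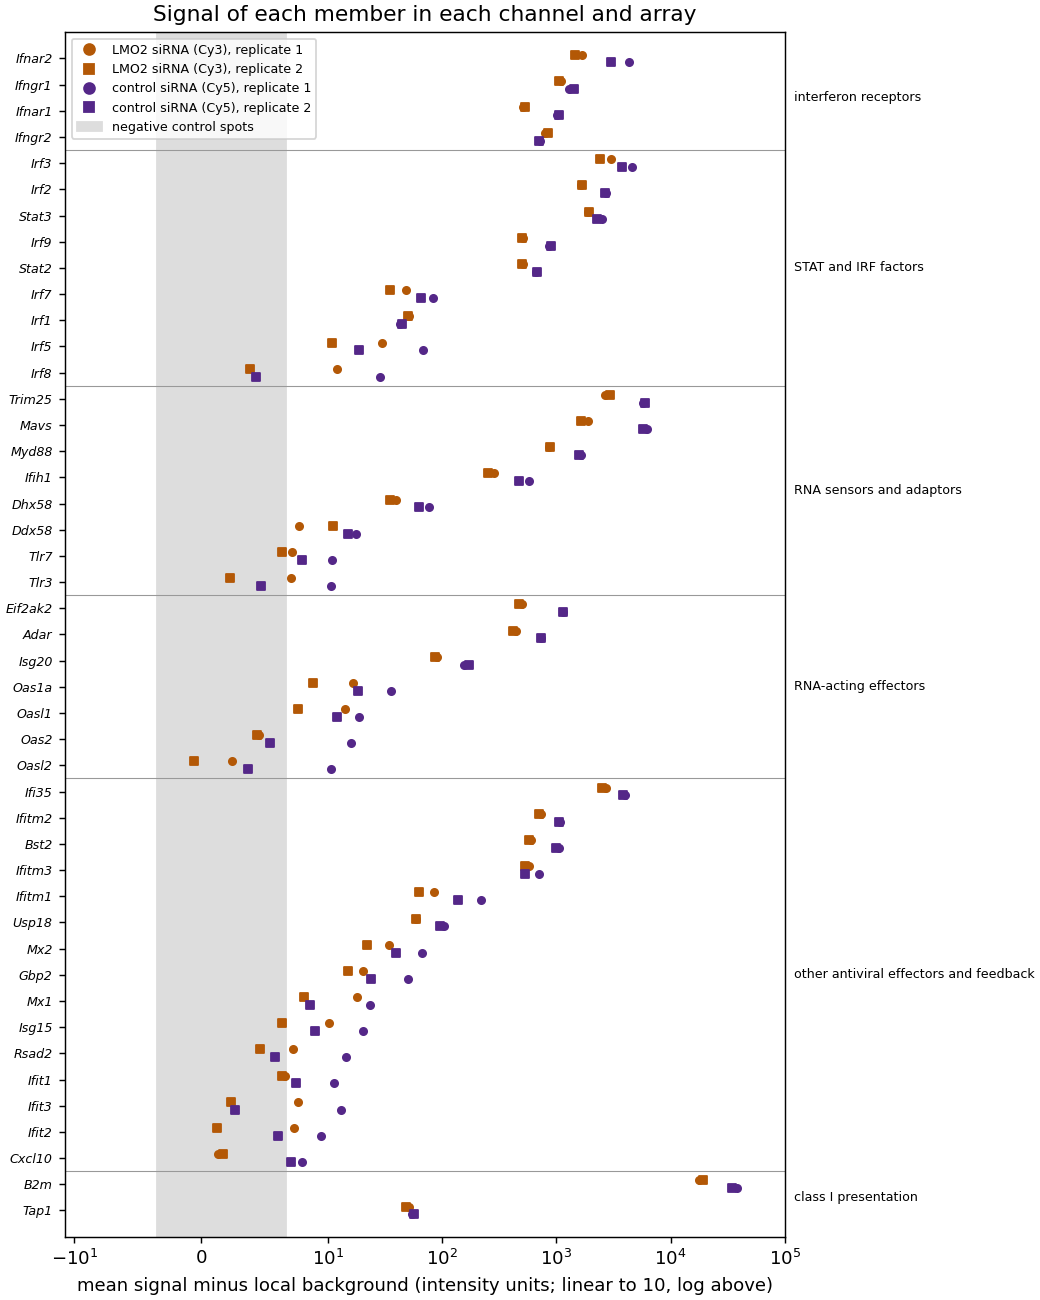
Background-subtracted signal of each member's probe (intensity units, log-like axis), LMO2 siRNA in Cy3 and control siRNA in Cy5 for replicates 1 and 2, with the grey band spanning the lowest 5th to the highest 95th percentile, over channels and arrays, of 153 negative-control spots. Members such as Ifit1, Cxcl10 and Oasl2 sit in or just above the band, while Ifngr2, Stat3, Mavs and B2m are far above it.

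Among the 31 measured members, limma called 11 higher and 5 lower with LMO2 siRNA and 15 neither, at a Benjamini-Hochberg adjusted p of 0.05 over all 14312 measured genes. That is 51.6% of members, against 51.9% of all measured genes (24.5% higher and 27.4% lower), so the members' share lies at the background. The median log2 ratio of the members was 0.02, against -0.02 for all genes, and 23 of 31 members had the same sign on both arrays, against 11756 of 14312 genes. A called difference can be small in this comparison. Ratios climbed from the first to the last rows of each array, and in the rest of the text "rose" and "fell" are used only of genes called in the same direction both without and with the scanner's position factor, a rule chosen after the values were seen. By that rule 9 members rose and 3 fell (38.7% of 31), against 28.6% of all genes (15.5% higher and 13.1% lower). Median centring in place of loess moved the median of all genes to -0.40, and relative to that shift the 3 members that fell were still below 0 and the 9 that rose were above 0 except Irf2, at -0.05.

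**Figure D2:**
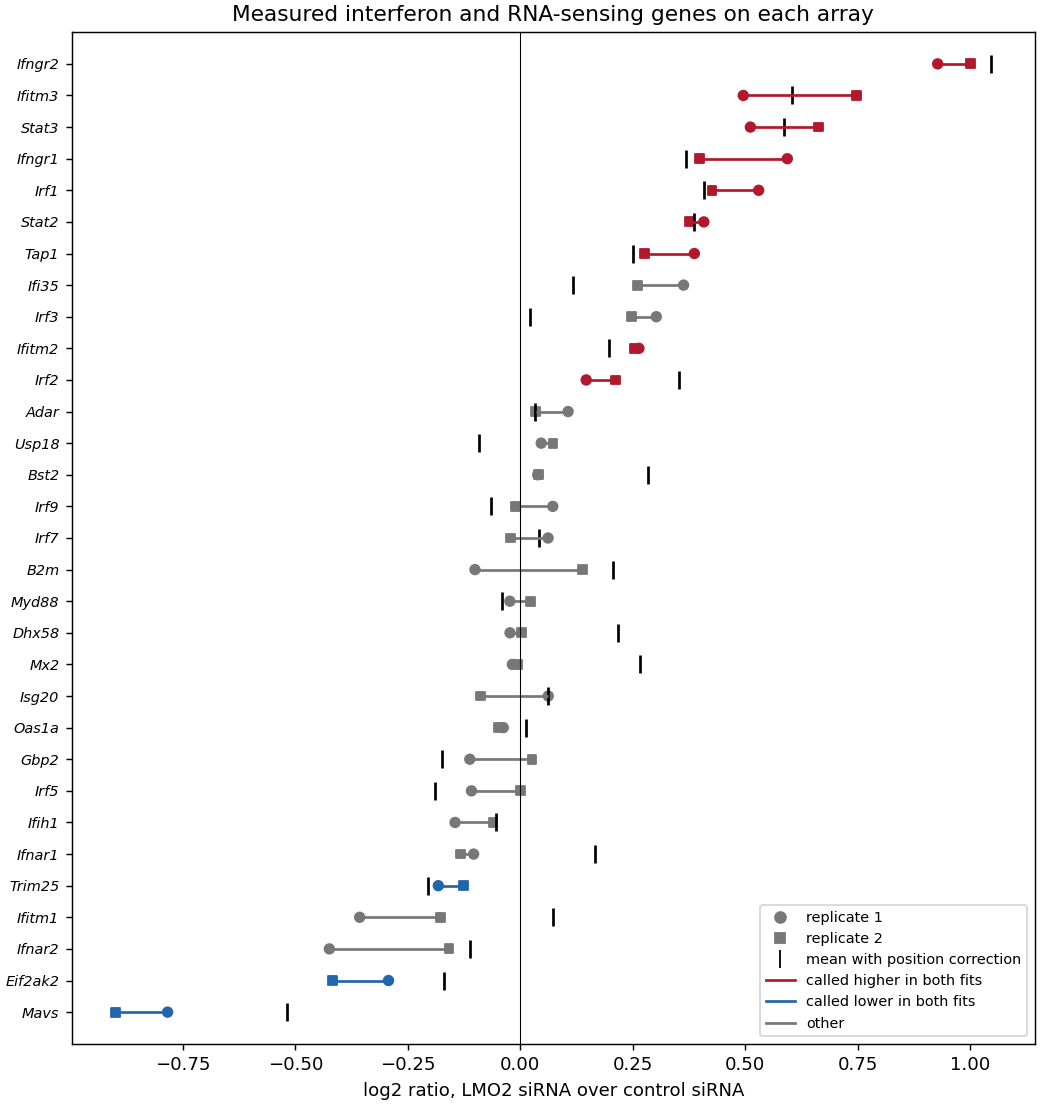
Log2 ratio, LMO2 siRNA over control siRNA, of the 31 measured members, with the values of both arrays as points. Members are sorted by their mean ratio and coloured by the call under both fits, and a tick marks the mean with position correction. By the mean without position correction Ifngr2 lies highest at 0.96 and Mavs lowest at -0.84, and the median over members is 0.02.

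Of the 4 receptor chains, both chains of the interferon gamma receptor rose and neither chain of the type I receptor was called in both fits. That is 50% of the receptor chains, against 28.6% of all genes (15.5% higher), in a group of 4. Ifngr2, the signalling chain, read 1128 and 1186 units with LMO2 siRNA, against 593 and 593 with control siRNA. The arms did not overlap, and the difference was 1.95-fold (log2 ratio 0.96 ± 0.05, SD, n = 2; limma adjusted p = 6.9e-15). Its further probe, whose start is printed above, gave 0.84 ± 0.10. Ifngr1, the ligand-binding chain, read 1536 and 1486 units with LMO2 siRNA, against 1018 and 1127 with control siRNA (0.50 ± 0.14; limma adjusted p = 2.8e-08), again without overlap. Ifnar2, a chain of the type I receptor, read 2377 and 2043 units with LMO2 siRNA, against 3190 and 2280 with control siRNA, and the arms overlapped. Overlap here compares intensities over both arrays, although the arms are paired within each array. Ifnar2 was lower on both arrays (-0.42 and -0.16). Its ratio of -0.29 ± 0.19 became -0.11 with position correction (limma adjusted p = 0.18). The further Ifnar2 probe read 1967 and 1783 units with LMO2 siRNA, against 2594 and 2300 with control siRNA, without overlap (-0.38 ± 0.02, and -0.22 with position correction). Ifnar1, the partner chain, had -0.12 ± 0.02 and, with position correction, 0.17, so its sign depended on that correction.

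Of the 8 measured STAT and IRF factors, 4 rose and none fell under both fits; limma called 5 of the 8 higher and 0 lower without position correction. Among all genes 15.5% were higher under both fits and 24.5% without position correction. Stat3, a transcription factor that many cytokine receptors activate, read 2640 and 2667 units with LMO2 siRNA, against 1852 and 1685 with control siRNA. The arms were well apart (0.59 ± 0.11; limma adjusted p = 7.6e-10) and the value was 0.59 with position correction. Stat2, the subunit particular to the type I interferon complex and with the ISRE letters printed above, read 738 and 737 units with LMO2 siRNA, against 556 and 568 with control siRNA (0.39 ± 0.02; limma adjusted p = 7.8e-07). Its arms did not overlap either. Irf2, known as a repressor of interferon-responsive promoters, read 2282 and 2349 units with LMO2 siRNA, against 2062 and 2028 with control siRNA, a small difference (0.18 ± 0.05; limma adjusted p = 0.0084) that was 0.35 with position correction.

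Irf1, an interferon gamma target and activator, depended on its probe and on background treatment. It read 128 and 130 units with LMO2 siRNA, against 88.5 and 96.5 with control siRNA (0.48 ± 0.07; limma adjusted p = 2.9e-08). The arms did not overlap, but the spot is dim. The ratio was 0.75 with an offset of 10 and 1.16 in the scanner's processed signals. The further Irf1 probe gave -0.04 ± 0.09. Irf3, the factor that activates the interferon beta gene, was called higher at 0.27 ± 0.04 but was 0.02 with position correction. Irf9, the DNA-binding subunit with the STATs, had 0.03 ± 0.06 and a further probe at -0.38 ± 0.04. With position correction the used probe had -0.07 and the further probe 0.05. Irf7, the amplifier of interferon alpha transcription, had 0.02 ± 0.06 on a dim spot and was not called. Irf5, which acts below Toll-like receptors, had -0.05 ± 0.08 and was above background in the LMO2 siRNA channel on 1 array only.

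Among the RNA sensors and their adaptors, 2 of 5 measured members fell and none rose under both fits; limma called 2 lower and 0 higher without position correction as well. The 40% called compare with 28.6% of all genes under both fits and 51.9% without position correction. Mavs, the mitochondrial adaptor of RIG-I and MDA5, read 2687 and 2307 units with LMO2 siRNA, against 4627 and 4303 with control siRNA. The arms were far apart, 1.79-fold lower with LMO2 siRNA (-0.84 ± 0.08; limma adjusted p = 2.3e-13). The difference was smaller after position correction (-0.52) and by the processed signals (-0.55), and it kept its call in each. Trim25, a ubiquitin ligase that acts on RIG-I, read 3718 and 4054 units with LMO2 siRNA, against 4219 and 4427 with control siRNA (-0.15 ± 0.04; limma adjusted p = 0.022). Its arms did not overlap, and its further probe gave -0.34 ± 0.08. With position correction the used probe had -0.20 and the further probe -0.11. With an offset of 10 the call was lost (-0.13; limma adjusted p = 0.11).

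Ifih1, the RNA helicase MDA5, read 445 and 405 units with LMO2 siRNA, against 492 and 423 with control siRNA. The arms overlapped, though Ifih1 was lower on both arrays (-0.14 and -0.06), and it was not called (-0.10 ± 0.06). A further, dim Ifih1 probe gave 0.15 ± 0.08. Dhx58, the related helicase LGP2, had -0.01 ± 0.02 on a dim spot and, with position correction, 0.22. Myd88, the adaptor of most Toll-like receptors, is printed in 10 spots and read 1228 and 1244 units with LMO2 siRNA, against 1248 and 1225 with control siRNA. Its ratio was 0.00 ± 0.03 and it was called neither without nor with position correction.

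Of the 4 measured effectors that act on RNA or are activated by it, 1 fell and none rose; limma called 1 lower and 0 higher without position correction. The 25% called lie near the 28.6% of all genes under both fits. Eif2ak2, the kinase PKR that double-stranded RNA activates, read 740 and 698 units with LMO2 siRNA, against 907 and 932 with control siRNA. The arms did not overlap (-0.36 ± 0.09; limma adjusted p = 4.9e-06), and the value was -0.17 with position correction. Adar, the RNA-editing enzyme, had 0.07 ± 0.05, with a further probe at 0.22 ± 0.06. It was called higher only with the mean or the median over both probes (mean 0.15, limma adjusted p = 0.029), without position correction. With position correction the used probe had 0.03 and the further probe 0.01. Isg20, an exonuclease, had -0.01 ± 0.11, with a further probe at 0.10 ± 0.04. Oas1a, an oligoadenylate synthetase, had -0.04 ± 0.01 and was above background in the LMO2 siRNA channel on 1 array only.

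Of 8 measured other antiviral and feedback genes, 2 rose, both of the Ifitm family of membrane proteins that hinder virus entry, and none fell. At 25% this share too was close to the 28.6% of all genes. Ifitm3 read 824 and 769 units with LMO2 siRNA, against 584 and 458 with control siRNA (0.62 ± 0.18; limma adjusted p = 6.4e-10). Ifitm2 read 1040 and 1013 units with LMO2 siRNA, against 867 and 850 with control siRNA (0.26 ± 0.01; limma adjusted p = 2.6e-04), and a further probe gave 0.21 ± 0.02. Neither gene's arms overlapped. Ifitm1 differed from them: it read 176 and 151 units with LMO2 siRNA, against 226 and 171 with control siRNA. The arms overlapped, though Ifitm1 was lower on both arrays (-0.36 and -0.18). Its -0.27 ± 0.13 became 0.07 with position correction. Family members resemble each other in sequence, and cross-hybridisation was not tested.

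Ifi35, an interferon-induced leucine zipper protein, was called higher at 0.31 ± 0.07 but had 0.12 with position correction (limma adjusted p = 0.10). Usp18, which removes ISG15 and damps receptor signalling, had 0.06 ± 0.02 on a dim spot and was not called. Bst2, the virus tether also called tetherin, had 0.04 and, with position correction, 0.29. Mx2, a dynamin-like GTPase, had -0.01 ± 0.01 on a dim spot and, with position correction, 0.27. Gbp2, an interferon gamma-induced GTPase, had -0.04 ± 0.10 and, with position correction, -0.17. In all, position correction alone added 5 members called higher (Ifnar1, Dhx58, Mx2, Bst2 and B2m) and 2 called lower (Irf5 and Gbp2), in a fit that called 44.6% of all genes (24.1% higher and 20.5% lower).

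In class I antigen presentation, Tap1 rose and B2m depended on the probe. Tap1, a subunit of the peptide transporter, read 129 and 129 units with LMO2 siRNA, against 98.5 and 106 with control siRNA (0.33 ± 0.08; limma adjusted p = 1.3e-05). Its dim spot gave 0.51 with an offset of 10. B2m, the light chain of class I molecules, read 25219 and 27253 units by its brightest probe with LMO2 siRNA, against 27044 and 24753 with control siRNA, and the arms overlapped (0.02 ± 0.17). The B2m probe printed in 10 spots read 27119 and 29098 units with LMO2 siRNA, against 19218 and 16829 with control siRNA, a ratio of 0.64 ± 0.21. The third B2m probe gave 0.05 ± 0.02. Of 11 members with more than 1 usable probe, 4 had probes of opposite sign.

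Members printed in 10 spots show the drift directly. For the B2m probe the log2 ratio was 0.09 at row 7 and 0.88 at row 502 on replicate 1, and 0.31 and 1.16 on replicate 2. With position correction its 10 spots ran from 0.43 to 0.62 and from 0.78 to 0.90. The uncorrected drift over this probe was larger than the log2 ratio of most measured members. Stat3 spots ran from 0.26 to 0.74 and from 0.41 to 0.92, and all lay above 0. Corrected, they ran from 0.44 to 0.55 and from 0.62 to 0.72. Myd88 spots lay on both sides of 0, from -0.23 to 0.21 and from -0.15 to 0.22, and after correction from -0.14 to -0.03 and from -0.04 to 0.02.

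**Figure D3:**
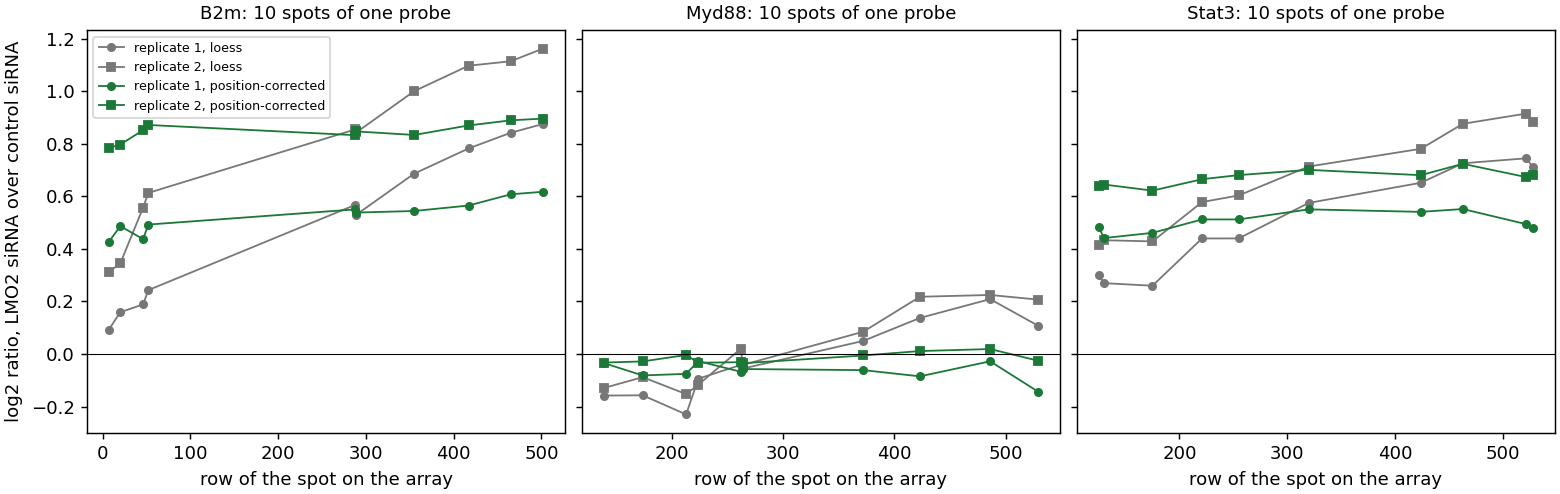
Log2 ratio of LMO2 siRNA over control siRNA against row on the array for the 10 spots of the B2m, Stat3 and Myd88 probes on both replicates, without and with position correction. The uncorrected ratios climb with row, for B2m from 0.09 to 0.88 on replicate 1, and the corrected ones are nearly level.

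The scanner's processed signals gave fewer calls, 973 higher and 486 lower over all genes. Of the 12 members that rose or fell, 5 were called in that fit as well: Ifngr2, Stat3, Stat2 and Irf1 higher and Mavs lower. The other 7, Ifitm3, Ifngr1, Tap1, Ifitm2, Irf2, Eif2ak2 and Trim25, were not. They kept their direction there with limma adjusted p between 0.050 and 0.12. Among all genes, 1241 of the 4097 called under both fits were called in all 3. As a share of those measured, this was 5 of 31 members, against 8.67% of all genes (6.25% higher and 2.42% lower). For bright members the processed values lay close to the position-corrected ones, as for Mavs (-0.55 and -0.52) and Trim25 (-0.21 and -0.20). A call in both is therefore not a separate check.

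**Figure D4:**
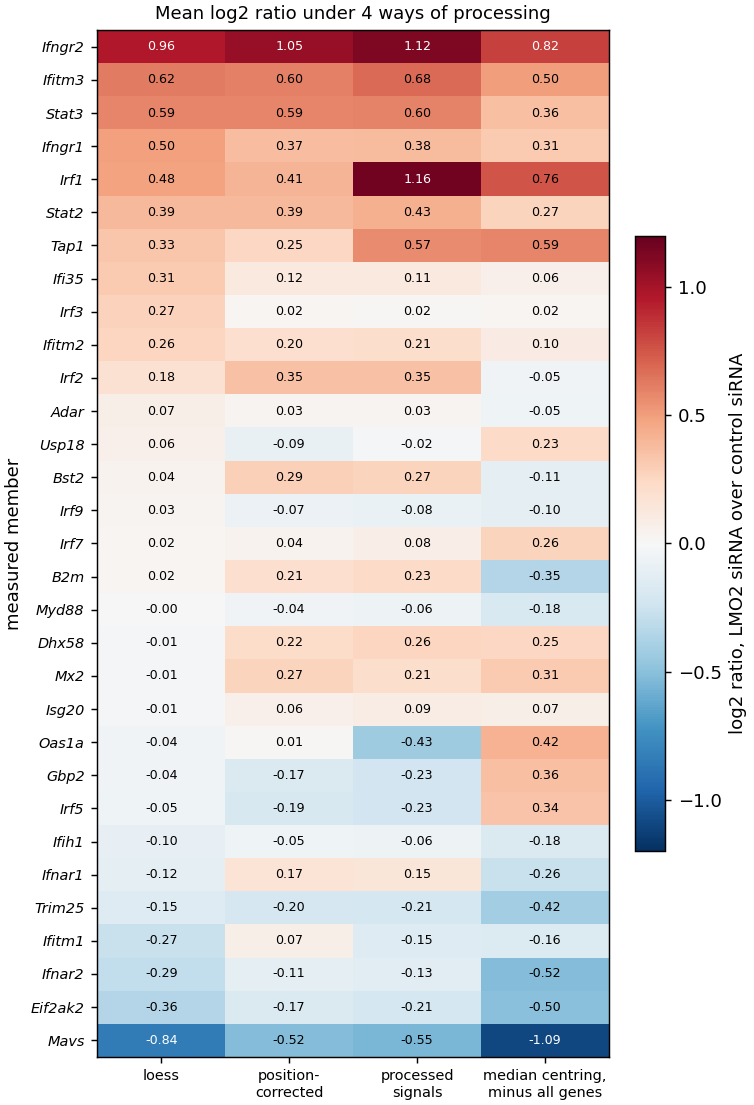
Mean log2 ratio of each measured member, LMO2 siRNA over control siRNA, after loess, with position correction, in processed signals, and with median centring minus the median of all genes. Ifngr2 is 0.96, 1.05 and 1.12 in the first 3 columns and Mavs is -0.84, -0.52 and -0.55, while Irf3 is 0.27 in the first and 0.02 in the next.

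The wider pathway was read from further lists of genes, each against the same background of 51.9% called and 28.6% called under both fits. Of 20 interferon and cytokine ligand genes with a probe 13 were measured, and none rose or fell (2 were called higher and 3 lower without position correction). Ifnb1, Ifna4, Ifne, Ifnk, Il6, Cxcl9 and Cxcl11 were not well above background. Probes for interferon alpha genes can share sequence with near-identical copies, so values such as Ifna9 at -0.27 ± 0.04, and 0.02 with position correction, are uncertain. Of 12 measured JAK-STAT and interferon factors outside the members, 3 rose and 1 fell. Irf2bp2, a corepressor that binds IRF2, had 0.83 ± 0.06, and Stat5a, which acts below the erythropoietin receptor, had 0.47 ± 0.10.

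Of 22 measured sensing adaptors and kinases, 4 rose and 3 fell. Tirap, an adaptor that brings MYD88 to Toll-like receptors, had -0.51 ± 0.01, and Rnf135, a ubiquitin ligase for RIG-I, 0.45 ± 0.01. Dhx9, an RNA helicase, had -0.47 ± 0.05 with a further probe at 0.15. Of 68 other interferon-stimulated genes with a probe 39 were measured, and of those 8 rose and 4 fell. Lgals9, the lectin galectin-9, read 413 and 435 units with LMO2 siRNA, against 177 and 192 with control siRNA, and was the highest of that list (1.20 ± 0.03; limma adjusted p = 5.5e-17). Tdrd7, a Tudor domain protein, had 0.80 ± 0.04. Shisa5 had 0.92 ± 0.07, with further probes between -0.17 and 0.37. Ube2l6, the conjugating enzyme for ISG15, had -0.72 ± 0.13, and -0.30 with position correction.

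Of 17 measured genes of class I presentation outside the members, 8 rose and none fell. Pdia3, a chaperone of the peptide-loading complex, had 0.54 ± 0.22. Tapbp, which encodes tapasin, had 0.56 ± 0.07 with a further probe at -0.09. H2-Q7 (0.39 ± 0.09) and H2-T23 (0.36 ± 0.06) are near-identical to other class I genes, so their probes may not tell copies apart. Of 17 measured negative regulators of interferon signalling, 4 rose and 1 fell. Nfkbia, the inhibitor of NF-kappaB, read 1101 and 1093 units with LMO2 siRNA, against 636 and 564 with control siRNA (0.87 ± 0.12; limma adjusted p = 1.5e-13). Socs1, a feedback inhibitor of JAK kinases, had 0.64 ± 0.19 and, with position correction, 1.05. Tnfaip3, which encodes the ubiquitin-editing protein A20, had 0.42 ± 0.08, and the phosphatase gene Ptpn1 0.33 ± 0.04.

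Promoters were searched for the members only. The ISRE letters were in 11 of 28 measured and 6 of 11 unmeasured members with a promoter entry, in 4 of 9 members that rose and in 1 of 3 that fell, against 3.99% of all genes. The GAS letters were in 12 of 28 measured and 2 of 11 unmeasured members, in 3 of 9 that rose and in 1 of 3 that fell, against 9.55% of all genes. Ifngr2 and Mavs, the members with the largest differences, held neither motif in this window.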

How the data were processed

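Mean signals, local backgrounds and processed signals are deposited as intensity values from Agilent Feature Extraction 9.1.3.1 per the file headers. A multiplicative position ratio for each spot is deposited as well. The deposited log10 ratios, red over green, match the series' own table within 0.005, with a median of 0 on each array. No source used here names the build behind the array design, and promoter sequences are RefSeq's for GRCm38.p6. Signals were corrected with normexp (offset 50) and loess in limma 3.58.1 (R 4.3.3), control spots at weight 0. Each gene is its brightest probe with at least 1 channel well above background on both arrays (for 10-spot probes, on at least 5 spots). Log2 ratios, LMO2 siRNA over control siRNA, were tested against 0 by limma's lmFit and eBayes. In the main fit the prior weighs 28.3 degrees of freedom against 1 residual, so p-values rest mostly on variance pooled over genes. The prior weighed 9.72 degrees of freedom with position correction and 2.2 with processed signals, so pooling was weaker in those fits. The code was tested on simulated data. Of 41174 probes, 24844 were named by RefSeq accession. In each channel 55.8% to 68.2% of spots passed as well above background. The number of arrays limits precision. Named genes are all members, Lmo2, and up to 4 called genes of each wider list with the largest absolute ratio and 1 sign on both arrays; some are not reported here. Members and lists were chosen with earlier results of these data known. Alternatives covered background correction, normalisation, position, filters, flags, saturation, probe summary, variance model, the table used, a minimum fold and leaving out either array.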

Additional observations from a re-analysis of the deposited data

How the results depend on the processing

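Members called higher and lower numbered 11 and 5. They numbered 4 and 1 with the scanner's processed signals, 3 and 1 with the series' own table, 1 and 1 when 1.5-fold on both arrays was also asked, and 2 and 17 with median centring, which moves the median of all genes to -0.40. Other settings gave 11 to 14 higher and 4 to 6 lower. The members' median of 0.02 was 0.045 without background correction, 0.092 with processed signals, 0.072 with position correction, -0.33 with median centring, 0.0057 without the filter on dim probes, 0.039 with the mean or the median over probes and 0.092 with the series' table. On single arrays, which give values with no test, it ran from 0.026 (without replicate 1) to 0.047 (without replicate 2). Among values called in either of the fits compared, the sign turned with median centring for Irf2 (-0.45), Irf3 (-0.38), Irf9 (-0.51), Stat2 (-0.13), Stat3 (-0.042), Ifngr1 (-0.094), Bst2 (-0.51), Ifi35 (-0.34), Ifitm2 (-0.31), Adar (-0.45), B2m (-0.75), Stat5a (-0.16), Irf2bp1 (-0.16), Tapbp (-0.065), Pdia3 (-0.11), H2-Q7 (-0.27), H2-T23 (-0.33), Ptpn1 (-0.38) and Dicer1 (-0.16), as it also did with the mean or median over probes for Irf9 (-0.17), and with position correction for Ifnar1 (0.17), Dhx58 (0.22), Mx2 (0.27), Ifitm1 (0.072) and Ifna9 (0.021). Apart from median centring, whose shift of all genes comes from its construction, the cause was not tested. Counts over all genes were 3509 higher and 3922 lower, and with median centring 425 and 9236. They fell as well with processed signals (973 and 486), the series' own table (898 and 425) and 1.5-fold on both arrays (441 and 169). The arms are paired within each array, and the test of within-array ratios already uses that pairing. Dim spots limit Irf1, Tap1, Irf5, Irf7, Dhx58, Usp18, Mx2, Gbp2 and Oas1a, and members without signal were given no ratio.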

Other observations

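The RNA interference machinery, which both siRNAs load into, was measured for 15 of 16 genes with a probe, and 1 rose and 2 fell under both fits, against 28.6% of all genes called. Dicer1, which cuts small RNA precursors, read 1193 and 1015 units with LMO2 siRNA, against 945 and 729 with control siRNA (0.41 ± 0.10; limma adjusted p = 6.5e-07), and a further probe gave 0.32. Tnrc6a, a partner of Argonaute proteins, read 2155 and 2152 units with LMO2 siRNA, against 2968 and 2898 with control siRNA (-0.45 ± 0.02), with further probes between -0.21 and 0.07. Ago1 had -0.40 ± 0.02 but -0.05 with position correction, and a further probe at 0.27. Prkra, the activator of PKR that also binds Dicer, had -0.26 ± 0.01 and, with position correction, -0.04.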
